A study of Homo sapiens with 6 samples.

Results

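The genes of the proteasome were followed in C42 cells, a human prostate cancer line usually written C4-2 and derived from LNCaP, after an shRNA against NSD2. Members were all rows of the count table whose symbol starts with PSMA, PSMB, PSMC, PSMD, PSME or PSMF and a number, or with PSMG and a single digit, which gave 47 of 31413 genes. The groups were C42 cells with the shRNA against NSD2 (shNSD2, libraries 1, 2 and 3) and C42 cells with the control shRNA (shCTR, libraries 1, 2 and 4), both grown in RPMI medium with 10% serum and antibiotics. NSD2, also called WHSC1, encodes a histone H3 lysine 36 dimethyltransferase, and the title of the series names its part in immune infiltration of prostate cancer as the question. The number of hairpin sequences or clones behind each group is not given in the sources used here, nor is the time after knockdown. Whether libraries of a group came from separate cultures is not stated either, so each p rests on a spread between libraries that may be technical only. In such bulk RNA, fewer cells with a transcript and less of it per cell cannot be told apart.

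The proteasome degrades proteins that carry ubiquitin chains. Its barrel, the 20S core, stacks rings of alpha subunits, which form the gate, on rings of beta subunits, of which PSMB5, PSMB6 and PSMB7 cut the substrate. The 19S particle caps the barrel: a base of ATPases unfolds the substrate, and a lid removes its ubiquitin. Under interferon gamma, many cells build the immunoproteasome, in which PSMB8, PSMB9 and PSMB10 take the places of PSMB5, PSMB6 and PSMB7 and which favours peptides that fit MHC class I molecules. Other members open the barrel as activators (PSME), bind it as an inhibitor (PSMF1) or assemble it (PSMG and some PSMD genes).

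NSD2 was lower in every shNSD2 library. Its level was 85.3, 86.4 and 89.7 CPM (counts scaled to library size with TMM factors) in shNSD2, against 219, 223 and 200.1 CPM in shCTR, which leaves 40.7% of the control mean (exact two-sided permutation test p = 0.1, the smallest that 3 against 3 libraries can give). Library totals were 19412896 to 20665494 counts, so that a floor of 3 counts was 0.145 to 0.156 CPM, which covers counting error only. The prostate luminal markers fixed for the label, 9 of 9, were all measured, with KLK3 at 5590.1 to 6021 CPM in shNSD2 and 6382 to 7038 CPM in shCTR. Library shCTR 4 stood apart from the other controls. The chi-square of counts per degree of freedom was 42.8 between shCTR 1 and 4 and 20.6 between shCTR 2 and 4. It was 10.8 between shCTR 1 and 2 and 4.09 to 9.92 between shNSD2 libraries. Each main result below is therefore given with and without shCTR 4.

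Proteasome transcripts were on balance higher in shNSD2, led by the beta ring of the core and by the activator gene PSME1. Of the 47 members, 44 passed the low-count filter and were tested. At an adjusted p under 0.05 (edgeR quasi-likelihood test, adjusted over all 17160 genes tested), 12 of the 44 rose and 0 fell. Over all genes tested, 15.5% rose and 15.2% fell. DESeq2 and limma-voom each called 0 lower too, in fits that called 13.2% and 14.7% of all genes lower. At an unadjusted p under 0.05 in edgeR the count of lower members was also 0. No share over all genes is given here for that threshold, so this count cannot be weighed. Without the low-count filter 11 rose, in a fit that called 7.62% of all genes higher. The median log2 fold change of the 44 members was 0.20, with 37 above zero, beside a median of 0.005 and 50.5% above zero over all genes tested. The 12 that rose had log2 fold changes of 0.31 to 0.58.

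The number of calls depended on single libraries, shCTR 4 most of all. The summed level of all members was 5769, 5858 and 6029.5 CPM in shNSD2, against 4589, 4835 and 5826 CPM in shCTR 1, 2 and 4. Placed on the log2 scale between the mean of shCTR 1 and 2 and the mean of the shNSD2 libraries, shCTR 4 lay at 77.9% of the distance averaged over the beta ring, at 97.1% over the alpha ring and at 114% over the 19S particle, whereas for NSD2 itself it lay at 10.6%. Without shCTR 4, 30 members rose and 0 fell with a median of 0.33, in a fit that called 23.9% of all genes higher and 22.6% lower. Leaving out any other library, which makes its group smaller, lowered the count. It was 2 without shNSD2 1 (7.78% of all genes higher), 3 without shNSD2 2 (8.28%) and 1 without shNSD2 3 (6.33%). It was 3 without shCTR 1 (8.51%) and 1 without shCTR 2 (6.65%), and PSME1 was called in each of these fits. The part of shCTR 4's difference in the results was not tested beyond these fits.

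**Figure D1:**
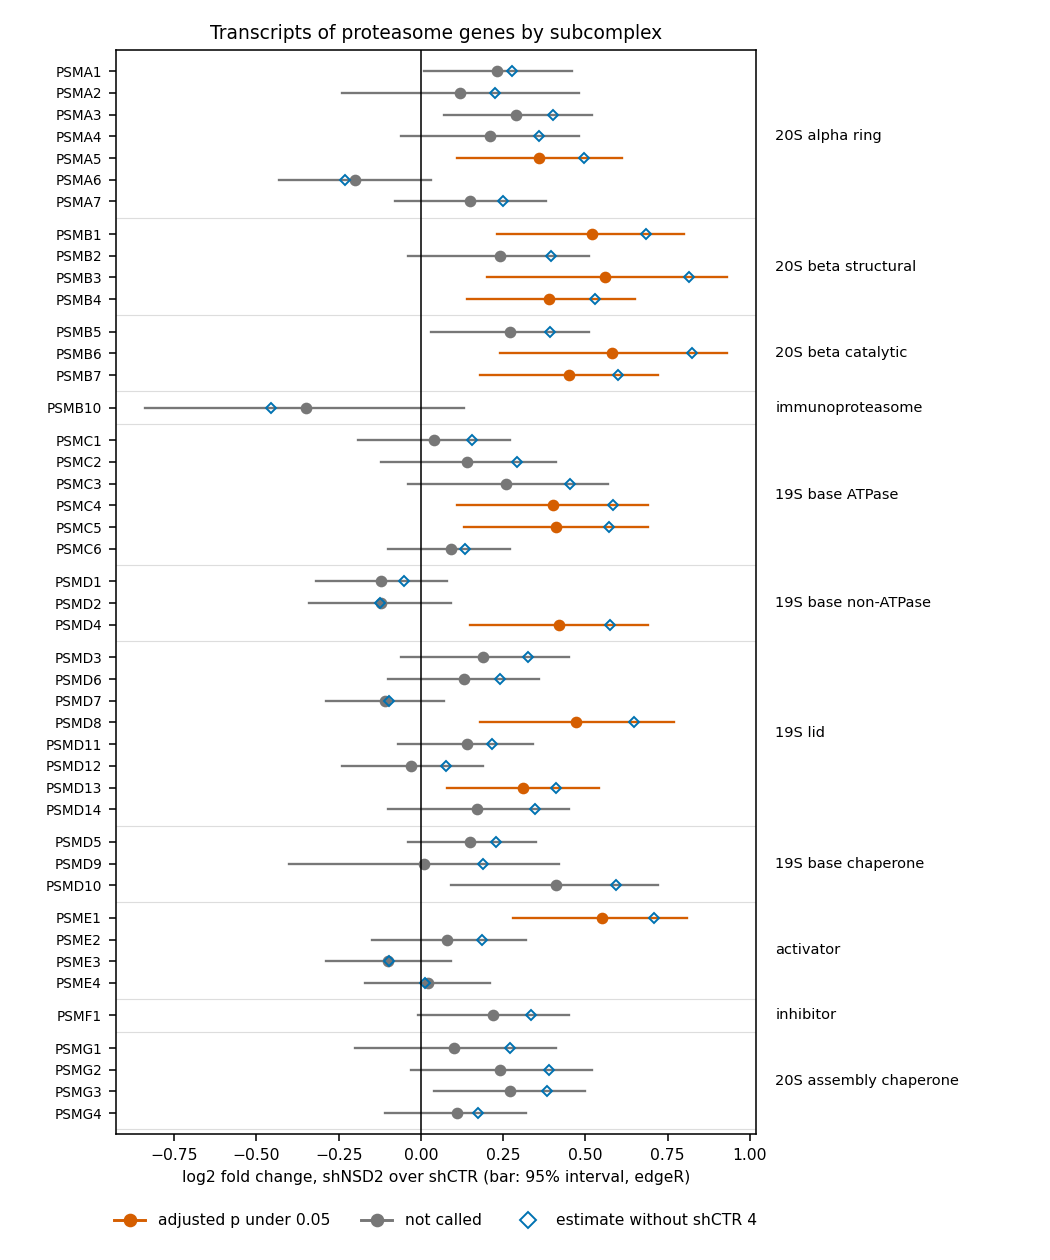
Log2 fold change, shNSD2 over shCTR, of the 44 tested proteasome genes with 95% confidence intervals, by subcomplex, with calls at an adjusted p under 0.05 in orange and the estimate without shCTR 4 as open diamonds. All 7 constitutive beta ring genes lie above zero, and the 12 called genes lie between 0.31 and 0.58.

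The beta ring held the largest share of rises, 5 of its 7 constitutive genes (15.5% of all genes tested rose), with a median log2 fold change of 0.45. All 7 lay above zero, and 6 had every shNSD2 library above every control, which is a pattern seen in 24.0% of all genes tested. PSMB6, the caspase-like catalytic subunit, had 131, 128 and 135 CPM in shNSD2, against 69.6, 78.6 and 115 CPM in shCTR 1, 2 and 4. All shNSD2 libraries lay above all controls, and the highest control was shCTR 4. Its level averaged 131 ± 3.99 CPM in shNSD2 and 87.6 ± 23.8 CPM in shCTR (SD, n = 3 each), and the log2 fold change was 0.58 (SE 0.156, edgeR adjusted p = 0.0190). PSMB7, the trypsin-like subunit, had 154, 153 and 168 CPM in shNSD2, against 97.4, 111 and 138 CPM in shCTR, again without overlap (log2 fold change 0.45, SE 0.123, edgeR adjusted p = 0.0208). PSMB5, the chymotrypsin-like subunit and the main target of bortezomib, had 138, 144 and 147 CPM in shNSD2, against 106, 112 and 138 CPM in shCTR. Its groups did not overlap but came together at shNSD2 1 and shCTR 4, and its log2 fold change of 0.27 did not pass the test (95% interval 0.03 to 0.51, edgeR adjusted p = 0.0776), but did without shCTR 4 (0.39, adjusted p = 0.000962).

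The 4 beta subunits without a catalytic site gave 3 rises, where 15.5% of all genes tested rose. PSMB3 had 122, 128 and 144 CPM in shNSD2, against 71.0, 78.4 and 118 CPM in shCTR (log2 fold change 0.56, SE 0.165, edgeR adjusted p = 0.0273). PSMB1 had 183, 179 and 195 CPM in shNSD2, against 109.7, 121 and 158 CPM in shCTR (0.52, SE 0.128, edgeR adjusted p = 0.0145). PSMB4, which had the highest mean level per kilobase of all members in shNSD2, had 283, 286 and 308 CPM in shNSD2, against 199, 207 and 262 CPM in shCTR (0.39, SE 0.117, edgeR adjusted p = 0.0284). In each of these 3 genes the groups did not overlap, and shCTR 4 was nearest to shNSD2. PSMB2 had 161, 174 and 182 CPM in shNSD2, against 127, 135 and 176 CPM in shCTR, where shCTR 4 reached into the shNSD2 range (0.24, edgeR adjusted p = 0.169). Without shCTR 4, all 7 beta ring genes rose, with a median of 0.60, in a fit that called 23.9% of all genes higher. With shCTR 2 left out, the adjusted p of the 5 called genes ran from 0.0672 for PSMB1 to 0.120 for PSMB4, and with shNSD2 3 left out from 0.0633 to 0.113. Leaving out shNSD2 1 ended the calls of PSMB3 (0.0563), PSMB4 (0.0662), PSMB6 (0.0571) and PSMB7 (0.0549). Those of PSMB3, PSMB4 and PSMB7 also ended without shNSD2 2 (0.0637, 0.0770 and 0.0540) and without shCTR 1 (0.0732, 0.0754 and 0.0534).

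**Figure D2:**
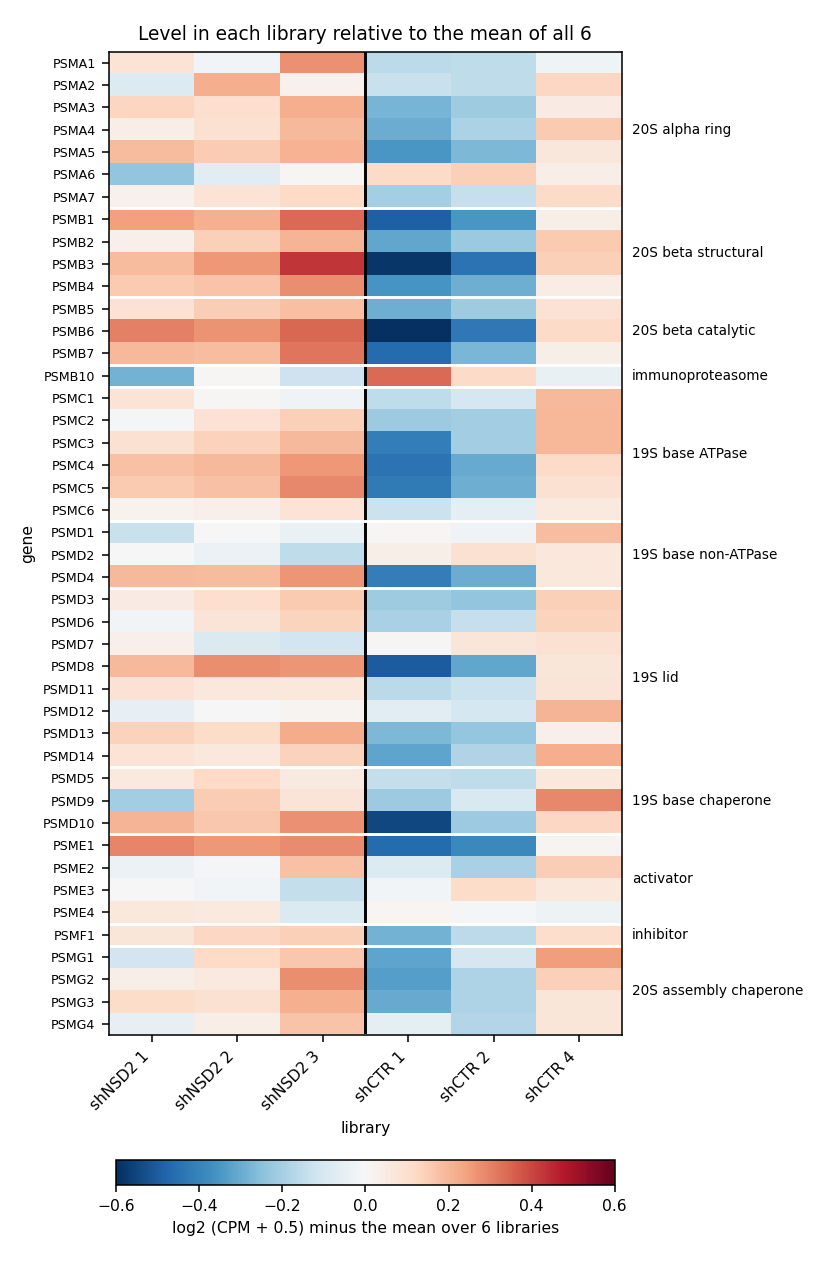
Level of each of the 44 tested proteasome genes in each library, as log2 (CPM + 0.5) minus the mean over the 6 libraries, grouped by subcomplex. In most rows shCTR 1 and 2 are lower than the shNSD2 libraries and shCTR 4 is close to them, and PSMA6 and PSMB10 run the other way.

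In the alpha ring 1 of 7 genes rose, a share near that of all genes (15.5%), and the median log2 fold change was 0.21. PSMA5 had 150, 146 and 152 CPM in shNSD2, against 103, 109 and 138 CPM in shCTR, with no overlap between the groups (log2 fold change 0.36, SE 0.113, edgeR adjusted p = 0.0369). Its call was lost when any library other than shCTR 4 was left out (adjusted p = 0.0903 to 0.140). PSMA6 ran lower, with 13.2, 14.9 and 15.7 CPM in shNSD2, against 17.0, 17.3 and 16.1 CPM in shCTR. Its groups did not overlap, a pattern seen in the lower direction in 22.8% of all genes tested, but the log2 fold change of -0.20 did not pass the test (edgeR adjusted p = 0.154). The other 5 alpha genes had positive log2 fold changes of 0.12 to 0.29 that did not pass the test. Without shCTR 4, 5 of the 7 rose, PSMA2 and PSMA6 being the exceptions, in a fit that called 23.9% of all genes higher.

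PSMA6 also had a low level, as did PSMA1, PSMA2, PSMB10 and PSMD9. In GENCODE 29 these are the 5 members of which at least 1% of the principal transcript lies in exons of another gene on the same strand: 53.22% of PSMA1, 52.52% of PSMA2, 80.95% of PSMA6, 45.32% of PSMB10 and 43.82% of PSMD9. Their levels were 1.31 to 18.3 CPM per kilobase of transcript in shNSD2 and 1.67 to 16.3 in shCTR. The 11 constitutive core genes without such overlap had 40.1 to 303 CPM per kilobase in shNSD2 (median 154) and 31.3 to 248 in shCTR (median 115). Low levels were not particular to the 5. Without such overlap, PSMC1 had 11.2 CPM per kilobase in shNSD2 and 10.9 in shCTR, and PSMD5 had 11.7 and 10.5. PSMB8 and PSMB9 had 0.235 to 0.255 over both groups. How the authors' counting treated reads in exons shared by genes is not given in the sources used here. Its part in the levels of the 5 was not tested. None of the 5 passed the test, beside 12 of the 39 other tested members, and their median log2 fold change was 0.01, beside 0.22. Over all genes tested, 15.5% rose and 15.2% fell, and 0 of 5 genes cannot be told apart from such shares. PSMA2, PSMB10 and PSMD9 also held only 27 to 120 counts in a library. The sequences show how far the shared exons reach into the coding parts: each line is a stretch of 80 bases of spliced coding sequence (GRCh38, GENCODE 29), 5′ to 3′, in which bases in capitals lie in exons of the other gene too.
PSMA1 (chr11:14513848-14514442, - strand): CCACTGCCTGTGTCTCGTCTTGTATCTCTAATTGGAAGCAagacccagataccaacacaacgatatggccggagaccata
PSMA6 (chr14:35292513-35308033, + strand): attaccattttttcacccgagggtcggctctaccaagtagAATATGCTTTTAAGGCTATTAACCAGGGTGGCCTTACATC
PSMB10 (chr16:67935978-67936057, - strand): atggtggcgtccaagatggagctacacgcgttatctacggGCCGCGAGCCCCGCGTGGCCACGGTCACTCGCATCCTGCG
PSMD9 (chr12:121894802-121899673, + strand): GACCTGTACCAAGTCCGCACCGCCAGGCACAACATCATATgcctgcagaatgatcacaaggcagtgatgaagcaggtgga
Of the coding bases, 91.0% were shared in PSMA1, 89.7% in PSMA6, 60.1% in PSMB10 and 68.5% in PSMD9, and all of those of PSMA2 were, which therefore has no such border to show. The overlapping gene of PSMB10, AC040162.1, held 430 counts in the 6 libraries together, against 218 for PSMB10, while AC010132.3 over PSMA2, AL121594.3 over PSMA6 and AC069503.2 over PSMD9 held 9, 39 and 13 counts. WDR66, which shares 436 bases of the annotated exons of PSMD9 on the same strand, held 659 counts, against 608 for PSMD9. The gene that overlaps PSMA1 was not analysed here.

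**Figure D3:**
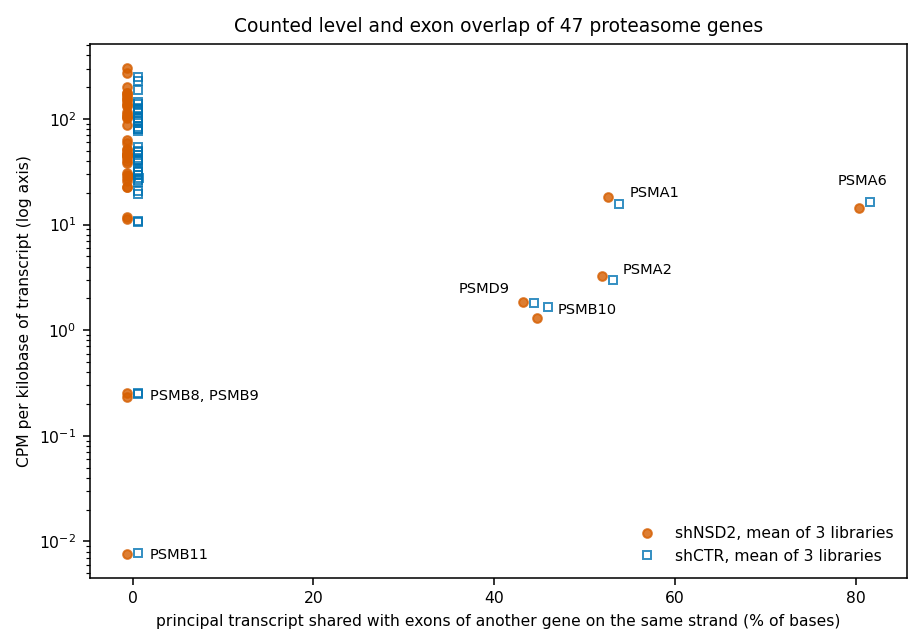
Mean level of each of the 47 proteasome genes (CPM per kilobase of principal transcript, log axis) against the share of that transcript in exons of another gene on the same strand, for shNSD2 (filled) and shCTR (open), drawn slightly apart sideways. The 5 genes with shared exons lie at or below 18.3 CPM per kilobase, as do PSMB8, PSMB9, PSMB11, PSMC1 and PSMD5 without sharing.

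The immunoproteasome was close to absent from the counts of both groups. PSMB8 had 6, 6 and 5 counts in shNSD2, against 6, 8 and 3 counts in shCTR, and PSMB9 had 3, 4 and 4 counts in shNSD2, against 5, 3 and 4 in shCTR. Both were below the filter and were not tested, and neither group stood above the other. PSMB11, the thymus form of PSMB5, had at most 1 count in any library and was not tested. PSMB10 had 1.38, 1.8 and 1.60 CPM in shNSD2, against 2.40, 1.98 and 1.72 CPM in shCTR, with shNSD2 2 above shCTR 4. Its log2 fold change of -0.35 did not pass the test (95% interval -0.84 to 0.13, edgeR adjusted p = 0.240). AC040162.1, which shares exons with it, had 3.16, 2.41 and 3.20 CPM in shNSD2, against 4.84, 4.68 and 3.08 CPM in shCTR (log2 fold change -0.52, edgeR adjusted p = 0.0833), so the reads of the pair cannot be told apart with certainty.

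Set against the constitutive subunit it replaces, PSMB10 made up a smaller part in each shNSD2 library than in each control. Its share of the summed counts of PSMB10 and PSMB7 was 0.889%, 1.16% and 0.946% in shNSD2, against 2.40%, 1.75% and 1.23% in shCTR 1, 2 and 4. The shares did not overlap, although the exact binomial 95% intervals of shNSD2 2 (0.811% to 1.61%) and shCTR 4 (0.847% to 1.72%) did. As a log2 ratio of counts, PSMB10 to PSMB7 averaged -6.64 ± 0.205 in shNSD2 and -5.83 ± 0.493 in shCTR (SD, n = 3 each), a difference of -0.81 (exact two-sided permutation test p = 0.1, the smallest that 3 against 3 can give). A ratio within a library shows unequal change of the genes and not which of them changed, and the test of PSMB7 passed where that of PSMB10 did not. PSMB9 made up 0.117% to 0.161% of PSMB9 plus PSMB6 in shNSD2 and 0.182% to 0.350% in shCTR. PSMB8 made up 0.165% to 0.221% of PSMB8 plus PSMB5 in shNSD2 and 0.113% to 0.342% in shCTR, which overlap. These shares rest on 3 to 8 counts of the immunoproteasome gene, and intervals cover counting error only.

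**Figure D4:**
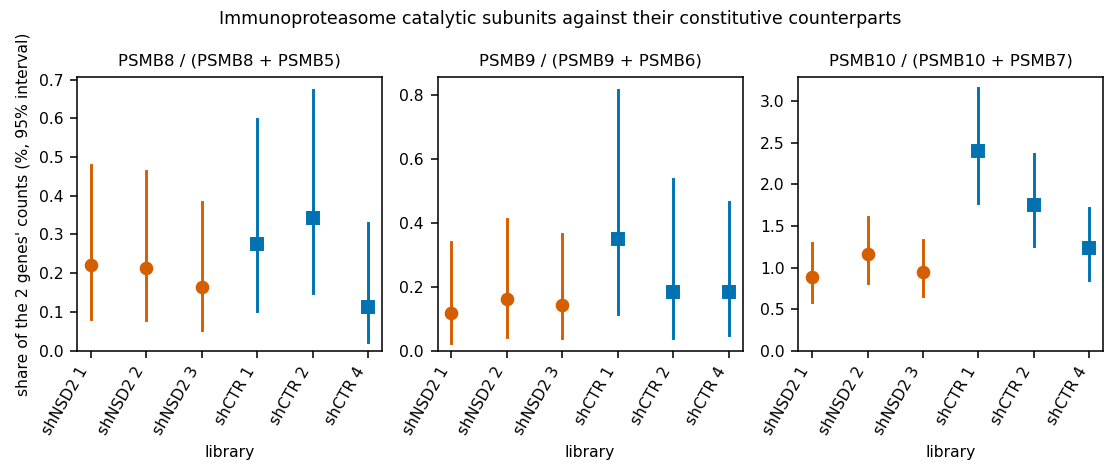
Share of each immunoproteasome gene in the summed counts of that gene and the constitutive gene it replaces, per library, with exact binomial 95% intervals. All shares are at or below 2.40%, and for PSMB10 the shNSD2 libraries lie below the controls.

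Leukocytes carry the immunoproteasome, so their markers were read beside it. The summed level of the 5 leukocyte markers measured was 162, 168 and 162 CPM in shNSD2, against 129, 132 and 132 CPM in shCTR. Nearly all of it came from LCP1, an actin-bundling gene (158, 165 and 159 CPM in shNSD2, against 127, 130.4 and 129.5 CPM in shCTR; log2 fold change 0.32, edgeR adjusted p = 0.0150). CD14 stayed at or below 0.244 CPM in every library and LAPTM5 at or below 0.561 CPM, while PTPRC and CD3E were not analysed here. IRF1, a transcription factor that drives immunoproteasome genes under interferon, had 1.89, 1.08 and 1.99 CPM in shNSD2, against 1.27, 1.06 and 1.56 CPM in shCTR. It did not pass the test (edgeR adjusted p = 0.357).

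PSME1 had the smallest p among the members. It encodes the alpha chain of PA28, the interferon-inducible ring that opens the core without ubiquitin and is associated with the supply of MHC class I peptides. PSME1 had 59.7, 58.3 and 59.3 CPM in shNSD2, against 35.2, 37.1 and 49.2 CPM in shCTR, without overlap. Its level averaged 59.1 ± 0.739 CPM in shNSD2 and 40.5 ± 7.58 CPM in shCTR (SD, n = 3 each), and the log2 fold change was 0.55 (SE 0.119, edgeR adjusted p = 0.00836). It stayed called with each library left out in turn (adjusted p at most 0.0444) and after correction for GC content and length (0.42, adjusted p = 0.00953). PSME2, which encodes the partner chain of the same ring, had 38.5, 39.1 and 44.7 CPM in shNSD2, against 37.3, 34.4 and 43.7 CPM in shCTR. Its groups overlapped, and the log2 fold change of 0.08 did not pass the test (95% interval -0.15 to 0.32, edgeR adjusted p = 0.575), a difference from PSME1 that was not itself tested.

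The remaining activators and the inhibitor did not pass the test. PSME3, the nuclear PA28 gamma, had 181, 179 and 164 CPM in shNSD2, against 179, 195 and 189 CPM in shCTR (log2 fold change -0.10, edgeR adjusted p = 0.401). PSME4, the activator PA200, had 188, 187 and 169 CPM in shNSD2, against 181, 178 and 176 CPM in shCTR (0.02, edgeR adjusted p = 0.854). The groups overlapped for both. PSMF1, which encodes the inhibitor PI31, had 94.2, 97.8 and 99.0 CPM in shNSD2, against 73.5, 80.2 and 96.3 CPM in shCTR (0.22, edgeR adjusted p = 0.131). Only shCTR 4 reached the range of shNSD2 for PSMF1, and without that library it rose (0.34, adjusted p = 0.00289).

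The promoters of PSME1, the member of smallest p, and of PSMB10, the immunoproteasome gene that could be tested, are printed. Both hold a motif of the interferon response type, while their log2 fold changes had opposite signs, and that of PSMB10 did not pass the test. Each printed window is 250 bases before to 50 after the annotated start (RefSeq, GRCh38.p14), 5′ to 3′ on the gene's strand. Capitals mark GAAA repeated after any 2 bases, the core of the element bound by IRF factors, and in PSME1 also TGACNNNGC, the antioxidant response element through which NFE2L1 and NFE2L2 drive proteasome genes.
PSME1 (chr14:24135944-24136243, + strand): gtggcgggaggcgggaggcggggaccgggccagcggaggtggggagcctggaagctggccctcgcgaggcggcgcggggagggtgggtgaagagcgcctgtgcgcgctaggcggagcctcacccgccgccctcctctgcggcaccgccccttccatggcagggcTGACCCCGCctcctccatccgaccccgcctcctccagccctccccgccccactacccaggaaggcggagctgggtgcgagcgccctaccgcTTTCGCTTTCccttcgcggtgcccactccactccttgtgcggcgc
PSMB10 (chr16:67936801-67937100, - strand): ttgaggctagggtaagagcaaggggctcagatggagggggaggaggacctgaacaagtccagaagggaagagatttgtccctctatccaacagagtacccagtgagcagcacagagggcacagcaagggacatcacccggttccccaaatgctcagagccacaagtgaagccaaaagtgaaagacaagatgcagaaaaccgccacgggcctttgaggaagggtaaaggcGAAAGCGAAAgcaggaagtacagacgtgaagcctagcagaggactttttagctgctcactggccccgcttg
In PSME1 the first capitals are TGACNNNGC and the second are the GAAA repeat on the opposite strand. Over both strands, the GAAA repeat occurred in 3.6% of all 35116 promoter windows and in 7 of the 50 windows of the 41 members with an entry, those of PSMA4, PSMB4, PSMB8, PSMB10, PSME1, PSME2 and PSMG4. TGACNNNGC occurred in 13.3% of all windows and in 15 member windows (30.0%). The ETS-type motif CCGGAA occurred in 17.2% of all windows and in 21 of the 50 member windows, and CCAAT, bound by NF-Y, in 34.6% of all windows and 20 member windows. Of the 8 genes with an entry that rose, 4 held TGACNNNGC, 4 CCAAT, 3 CCGGAA and 2 the GAAA repeat. Of the 30 tested genes with an entry that did not pass the test, 10 held TGACNNNGC, 14 CCAAT, 18 CCGGAA and 4 the GAAA repeat. The plan also had the promoter of PSMA6, the lower member of smallest p, which is not printed and did not pass the test. The first window of PSMA6 held none of these motifs, and CCGGAA occurred in a further window of that gene. A match describes the letters in the window and is not a site in use.

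In the 19S particle, 5 of 17 subunits rose, beside 15.5% of all genes tested, and the median log2 fold change was 0.14. Among the ATPases of the base, PSMC5 had 156, 158 and 171 CPM in shNSD2, against 104, 114 and 149 CPM in shCTR (log2 fold change 0.41, SE 0.127, edgeR adjusted p = 0.0347). PSMC4 had 165, 167 and 175 CPM in shNSD2, against 107, 118 and 158 CPM in shCTR (0.40, SE 0.132, edgeR adjusted p = 0.0412). The groups did not overlap for either, but PSMC4 was no longer called after correction for GC content and length (0.28, adjusted p = 0.0722). PSMC1 had 52.0, 49.3 and 48.4 CPM in shNSD2, against 44.1, 45.6 and 56.2 CPM in shCTR, with shCTR 4 the highest of all (0.04, edgeR adjusted p = 0.802). Of the principal transcript of PSMC1, 82.15% lies opposite exons of NRDE2, of PSMC5 27.23% opposite FTSJ3, and the strand setting of the counts is not given in the sources used here. All 6 ATPase genes had a positive log2 fold change, beside 50.5% of all genes tested.

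The scaffold and receptor subunits of the base differed from each other. PSMD4, a ubiquitin receptor, had 182, 181 and 191 CPM in shNSD2, against 119, 129 and 166 CPM in shCTR, without overlap (log2 fold change 0.42, SE 0.121, edgeR adjusted p = 0.0248). PSMD2, the scaffold that docks shuttle factors, had 479, 466 and 430.2 CPM in shNSD2, against 489, 509 and 499 CPM in shCTR. Every shNSD2 library of PSMD2 lay below every control, without passing the test (-0.12, edgeR adjusted p = 0.342). PSMD1, the other large scaffold, had 144, 158 and 154 CPM in shNSD2, against 159, 156 and 179.5 CPM in shCTR (-0.12, edgeR adjusted p = 0.345).

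In the lid, 2 of 8 genes rose, where 15.5% of all genes tested did. PSMD8 had 266, 282 and 279 CPM in shNSD2, against 164, 187 and 244 CPM in shCTR (log2 fold change 0.47, SE 0.134, edgeR adjusted p = 0.0238). PSMD13 had 206, 202 and 218 CPM in shNSD2, against 155, 159 and 191 CPM in shCTR (0.31, SE 0.102, edgeR adjusted p = 0.0418). Neither overlapped between groups. PSMD7, which pairs with the deubiquitinase subunit, had 48.5, 44.7 and 43.8 CPM in shNSD2, against 47.8, 50 and 50.6 CPM in shCTR (-0.11, edgeR adjusted p = 0.306), and 50.42% of its principal transcript lies opposite exons of another gene. PSMD14, the deubiquitinase itself, had 99.1, 97.8 and 103 CPM in shNSD2, against 75.0, 82.5 and 109 CPM in shCTR (0.17, edgeR adjusted p = 0.308). Here shCTR 4 exceeded every shNSD2 library, and PSMD14 rose without it (0.35, adjusted p = 0.00251). Without shCTR 4, 11 of the 17 subunits of the 19S particle rose, in a fit that called 23.9% of all genes higher. All 5 calls in the particle were lost when any other library was left out, with adjusted p from 0.0572 for PSMD8 without shCTR 1 to 0.157 for PSMD13 without shCTR 2.

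None of the assembly factors passed the test in all 6 libraries, where 15.5% of all genes tested rose and 15.2% fell. PSMD10 (gankyrin), a chaperone of the ATPase ring, came nearest with 65.6, 63.6 and 68.7 CPM in shNSD2, against 38.8, 48.7 and 61.9 CPM in shCTR (log2 fold change 0.41, edgeR adjusted p = 0.0505). Its groups did not overlap, and it was called after correction for GC content and length (adjusted p = 0.0296) and without shCTR 4 (0.59, adjusted p = 0.000127). PSMD9, another such chaperone, had 4.28, 5.65 and 5.33 CPM in shNSD2, against 4.25, 4.68 and 6.26 CPM in shCTR, fully overlapping (0.01, edgeR adjusted p = 0.969). Among the 20S assembly chaperones, PSMG3 had 52.8, 52.1 and 56.7 CPM in shNSD2, against 39.6, 43.0 and 51.4 CPM in shCTR (0.27, edgeR adjusted p = 0.0703). PSMG1, which works as a pair with PSMG2 in building the alpha ring, had 43.0, 50.6 and 52.2 CPM in shNSD2, against 37.3, 43.3 and 55.4 CPM in shCTR (0.10, edgeR adjusted p = 0.596). All 7 assembly factors, counting PSMD5, PSMG2 and PSMG4, had log2 fold changes above zero, beside 50.5% of all genes tested. Without shCTR 4, 5 of these factors rose, in a fit that called 23.9% of all genes higher.

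Short transcripts carried most of the calls. Of the 28 tested members with a principal transcript under 2000 bases, 11 rose, with a median log2 fold change of 0.27. Of the 16 longer ones, PSMA5 rose, and their median was 0.12. Over all genes tested, of any length, 15.5% rose. Over the 44 genes, log2 fold change and log2 transcript length had a Pearson r of -0.35 and a Spearman rho of -0.41, given as a description since the genes share libraries. After each library's smooth trend on GC content and exon length was removed, r was -0.08 and rho -0.19. With that correction 13 members rose and 0 fell (16.3% and 14.3% of all genes), with a median of 0.23: PSMC4 was lost, and PSMA3 (0.35, adjusted p = 0.0221) and PSMD10 were gained. With the correction and without shCTR 4, 32 rose and PSMB10 fell, where 24.9% and 20.1% of all genes did. The beta ring kept 5 of 7 calls after correction, with a median of 0.36 in place of 0.45.

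**Figure D5:**
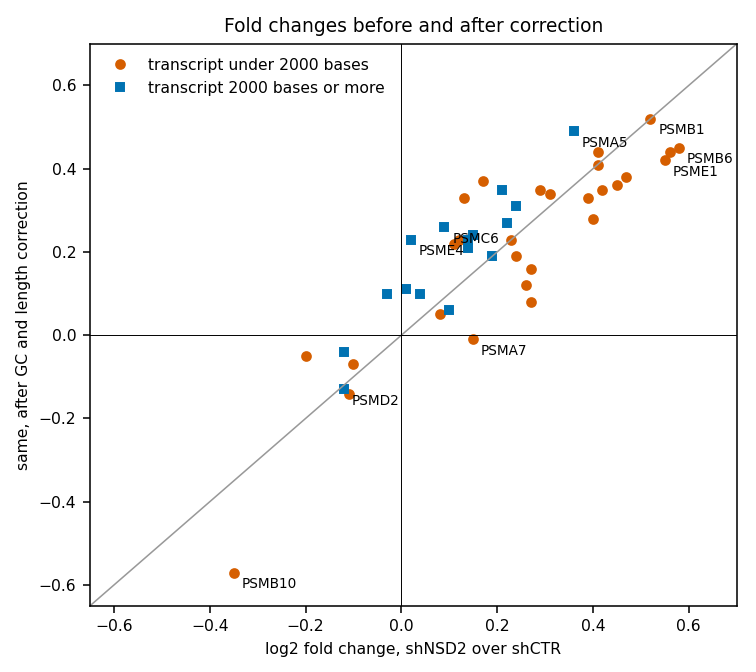
Log2 fold change of the 44 tested proteasome genes, shNSD2 over shCTR, before (horizontal axis) and after (vertical axis) removal of each library's trend on GC content and exon length, with circles for transcripts under 2000 bases and squares for longer ones. The median is 0.20 before and 0.23 after, and 37 genes lie above zero before and 37 after.

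The wider ubiquitin and proteasome system, a list of 38 other genes of which 37 were tested, gave 4 rises and 2 falls, with a median log2 fold change of 0.08, where 15.5% of all genes tested rose and 15.2% fell. Without shCTR 4 the list gave 11 rises and 5 falls (23.9% and 22.6% of all genes), and after correction for GC content and length 9 rises and 1 fall (16.3% and 14.3%). SEM1, a small lid subunit named outside the PSM scheme, and POMP, the maturation chaperone of the beta ring, were among the rises (0.57 and 0.38, edgeR adjusted p = 0.0307 and 0.0497). POMP was not called with DESeq2 size factors (adjusted p = 0.0503), with no low-count filter (0.0544) or with a filter of 1 CPM in 3 libraries (0.0509). The falls were in the genes of enzymes that process NFE2L1, the factor that raises proteasome genes when degradation is slowed. NGLY1, which removes its glycans, had 37.5, 38.5 and 37.9 CPM in shNSD2, against 51.6, 47.5 and 44.5 CPM in shCTR (-0.34, edgeR adjusted p = 0.0159). DDI2, the protease that cuts it, had a log2 fold change of -0.30 (edgeR adjusted p = 0.0307, and 0.0518 with no low-count filter). Neither fall was called after correction for GC content and length (-0.13 and -0.07, adjusted p = 0.206 and 0.497). NFE2L1 itself had 449, 409 and 371 CPM in shNSD2, against 501, 429 and 403 CPM in shCTR, which overlap (-0.12, edgeR adjusted p = 0.465). With a single library left out, NGLY1 lost its call without shNSD2 1, 2 or 3 or shCTR 2 (adjusted p = 0.0562 to 0.0614). SEM1, POMP and DDI2 lost it without any library other than shCTR 4 (0.0530 to 0.177).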

How the data were processed

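Polyadenylated RNA of 6 C42 libraries, 3 per group, was sequenced from a KAPA mRNA kit, per the labels' protocols. The deposited table holds raw read counts per gene. CASAVA 1.8.2, STAR 2.6.0a and GRCh38 are named in the submitters' processing notes. For the counting program, the annotation and the strand setting, nothing is given in the sources used here.

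Counts were tested in R 4.3.3 with edgeR 4.0.16 (filterByExpr, TMM, quasi-likelihood test, Benjamini-Hochberg over all 17160 genes left, called at an adjusted p under 0.05). The filter removed 14253 genes, and the common biological coefficient of variation was 10.57%. CPM values are TMM-scaled, and log2 plots add 0.5 CPM. Transcript lengths and exon overlaps came from GENCODE 29, in which 31313 gene identifiers were found and 100 were not. CPM per kilobase uses the principal transcript. Shares carry exact (Clopper-Pearson) 95% intervals, and a ratio of gene counts was compared by an exact permutation test.

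The members and gene lists were chosen with earlier results of these data known. Values in every library are given for the members of highest and lowest log2 fold change in each subcomplex, for called members with an absolute log2 fold change of at least 0.3, and for all immunoproteasome, activator and inhibitor genes. PSMD14 was added after its values were seen. Of the other proteasome genes, called ones are named, and some genes are not reported here. NFE2L1, IRF1 and the markers were added for context.

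Alternatives were other scalings in edgeR, DESeq2 1.42.0, limma-voom 3.58.1, no filter or a stricter one, a GC and exon length correction (mgcv 1.9.3), the replicate number as a block, and each library left out in turn. The fit that joins the correction with leaving out shCTR 4 was chosen after seeing the data. Promoter windows matched 41 of the 47 members.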

Additional observations from a re-analysis of the deposited data

How the results depend on the processing

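The 12 rises became 11 to 14 under other scalings, filters, DESeq2, limma-voom and the GC and length correction. Those fits called 7.62% to 17.5% of all genes higher. Leaving out the filter ended the call of PSMD13 (edgeR adjusted p = 0.0597) and the correction that of PSMC4. With a library left out, rises ranged from 1 to 30 and calls over all genes, 5263 in all 6 libraries, from 2436 to 8262. The highest of both came without shCTR 4, and the cause was not tested. The correction without shCTR 4 gave 32 rises, 1 fall (PSMB10) and 7996 calls over all genes. The replicate number as a block gave 22 rises (18.9% of all genes higher) and 6243 calls over all genes. In that fit shNSD2 3 and shCTR 4 each had a number of their own. The group difference therefore rested on libraries 1 and 2 of each group, without shCTR 4. The libraries share only the numbers 1 and 2, and the deviations of same-numbered libraries had correlations of -0.034 and -0.089, so the numbers were not taken to pair them. The log2 ratio of PSMB10 to PSMB7 ranged from -1.06 to -0.57 with a library left out. With a library left out, the uncalled log2 fold changes of PSMC1 (-0.037 to 0.15), PSMD9 (-0.11 to 0.19) and PSMG1 (-0.029 to 0.27) turned negative without shCTR 1. PSMC1 did so without shCTR 2 (-0.007) as well, and PSMD9 without shCTR 2 (-0.043), shNSD2 2 (-0.066) and shNSD2 3 (-0.027). Depth limits PSMB8, PSMB9 and PSMB11, with at most 8 counts in a library.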

Other observations

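UBB and RPS27A, genes that encode ubiquitin, had positive log2 fold changes that did not pass the test in all 6 libraries. UBB had 207, 231 and 244 CPM in shNSD2, against 122, 157 and 225 CPM in shCTR (log2 fold change 0.43, edgeR adjusted p = 0.0898), with shCTR 4 inside the shNSD2 range. RPS27A, a further ubiquitin fusion gene, had 431, 421 and 455 CPM in shNSD2, against 278, 314 and 415 CPM in shCTR (0.38, edgeR adjusted p = 0.0628). Without shCTR 4, both rose (0.70 and 0.56, adjusted p = 8.32e-05 and 0.000159). UBA1, the main ubiquitin-activating enzyme, had 499, 510.3 and 496 CPM in shNSD2, against 471, 482 and 515 CPM in shCTR (0.04, edgeR adjusted p = 0.787).

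KIAA0368, the proteasome adaptor also called ECM29, lay below every control in every shNSD2 library, with 325, 299 and 275 CPM in shNSD2, against 401, 375 and 336 CPM in shCTR (log2 fold change -0.31, edgeR adjusted p = 0.0508). It fell without shCTR 4 (-0.37, adjusted p = 0.00388), and after correction for GC content and length its log2 fold change was -0.16 (adjusted p = 0.202).

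Of the fibroblast and endothelial markers measured, LUM, PDGFRA and PECAM1 stayed at or below 0.153 CPM in every library. COL1A1 had 30.6, 27.0 and 26.9 CPM in shNSD2, against 20.4, 20.3 and 18.2 CPM in shCTR, COL3A1 at most 0.359 CPM in shNSD2 and 1.42 CPM in shCTR, and VWF 7.24, 8.06 and 7.37 CPM in shNSD2, against 5.72, 5.64 and 5.47 CPM in shCTR.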
